A study of Mus musculus with 16 samples.

Results

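Neurons are told apart by the proteins that handle their transmitter. Vesicular transporters load the transmitter into synaptic vesicles, and transporters of the plasma membrane take the transmitter or its precursor into the cell. The genes followed here were Slc17a6, Slc17a7 and Slc17a8 (vesicular glutamate), Slc32a1 (vesicular GABA and glycine), Slc6a11 (GABA uptake), Slc6a5 (glycine uptake), Slc5a7 (choline uptake), Slc18a3 (vesicular acetylcholine) and Slc18a2 (vesicular monoamines). They are 9 of the 55266 genes matched in the count tables. They were taken by name, and the counts of their 24 annotated transcripts were summed per gene.

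RNA was sequenced from frontal cortex (FC) and cerebellum (Cere) of mice lacking Upf3b (Upf3b-KO) and of Ctrl littermates, giving 4 groups of 4 libraries. The protein UPF3B acts in nonsense-mediated RNA decay (NMD), which removes messenger RNAs whose stop codon is read as premature. Both tissues are described as coming from 4 adult Upf3b-null mice and 4 littermate Ctrl mice, so the tissues share animals. Strain, exact age and the animal behind each library are not given in the sources used here, and no treatment is named for any group. Levels are CPM, the counts of a gene per 1000000 counts of its library.

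The library Cere_Upf3b-KO 1 held 64981 counts, whereas the other 15 held 27660078 to 35238677. It was left out, so n is 3 for Upf3b-KO cerebellum and 4 for the other groups, and each ± on a CPM value is an SD over these libraries. Upf3b itself stood at 14.8 ± 0.64 CPM in Ctrl and 0.559 ± 0.26 CPM in Upf3b-KO frontal cortex, and the cerebellar values were 22.7 ± 1.2 and 0.737 ± 0.20 CPM. Libraries of a group were very alike: a chi-square of their counts, for which counting error alone gives 1 per degree of freedom, was 2.74 to 3.89 over 21 pairs. The p-values therefore measure the spread between these libraries, which may be technical. Differences between animals or dissections and between genotypes cannot be told apart. In bulk tissue, fewer cells of a type and less RNA per cell cannot be told apart either.

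In most of the mammalian brain, glutamatergic neurons use Slc17a7 in cortex and in cerebellar granule cells, and Slc17a6 in thalamus, midbrain and brainstem. Slc17a8 marks small populations that often release another transmitter as well. Inhibitory neurons load both GABA and glycine with Slc32a1, and those that release glycine, common in brainstem and spinal cord and present in cerebellar cortex as Golgi cells, also carry Slc6a5. Cholinergic and monoaminergic neurons are few and sit mostly in basal forebrain, striatum and brainstem nuclei.

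**Figure D1:**
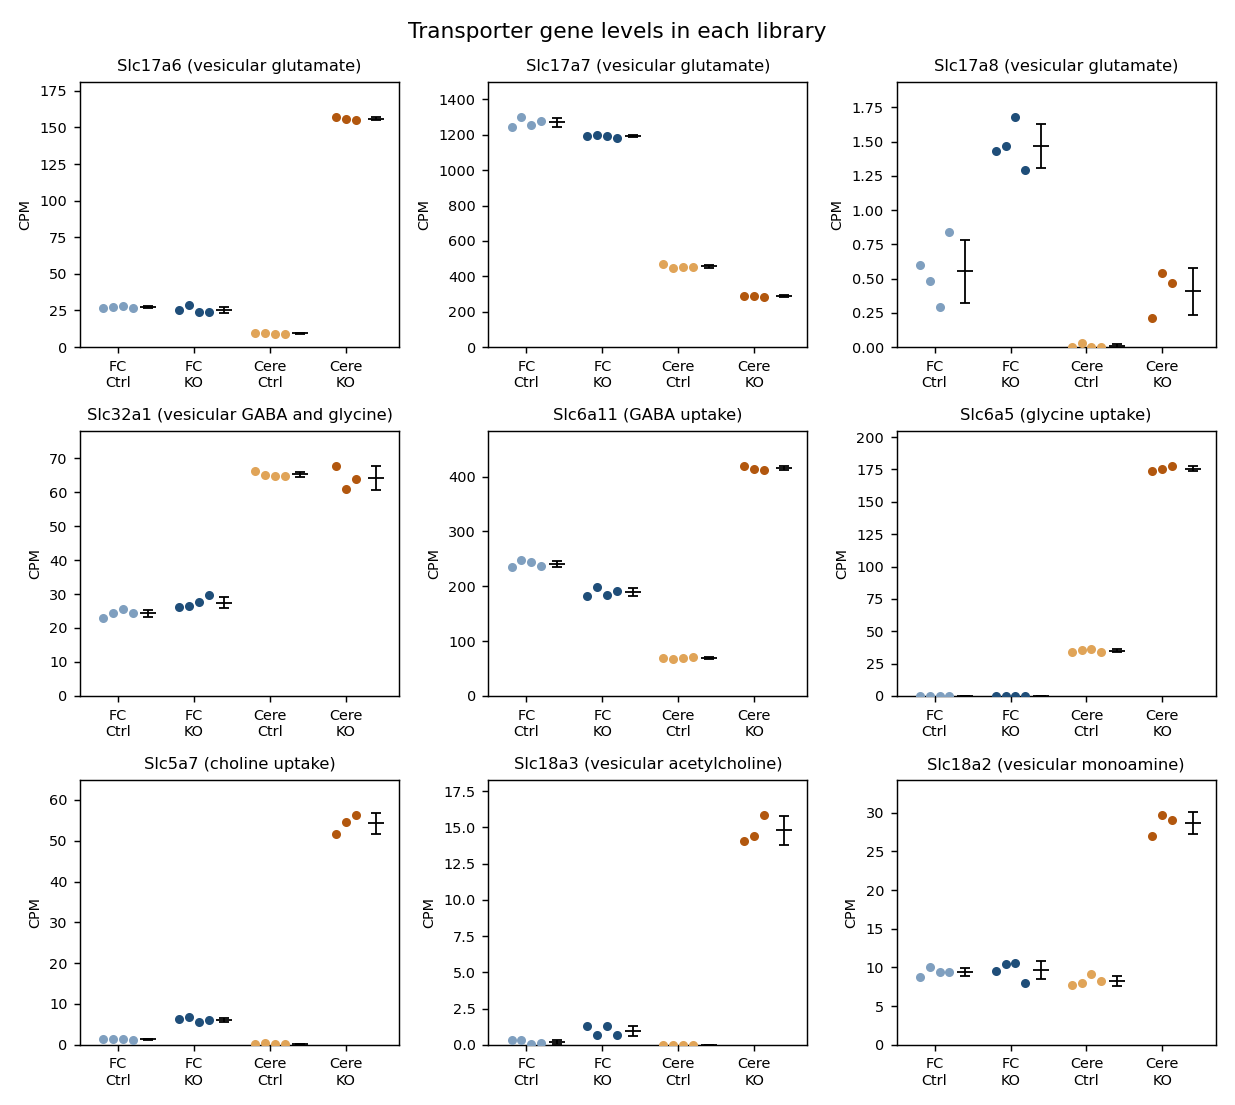
CPM (linear axis from 0) of each transporter gene in the 15 libraries used, by group (FC, frontal cortex; Cere, cerebellum; KO, Upf3b-KO); points are libraries, and the bar beside them is the mean with its SD. In cerebellum, Slc17a6, Slc6a11, Slc6a5, Slc5a7, Slc18a3 and Slc18a2 were higher in all 3 Upf3b-KO libraries than in all 4 Ctrl libraries, and Slc32a1 overlapped.

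In cerebellum, 6 of the 9 transporter genes rose in Upf3b-KO and none fell. A gene is said to rise or fall when edgeR's quasi-likelihood test put its Benjamini-Hochberg adjusted p below 0.01 and its fold change was more than 2. The counts allowed a test for 8 genes and not for Slc17a8, which was tested and rose with no low-count filter, with both tissues in 1 fit and without Cere_Upf3b-KO replicate 2. It had 1 count in all in Ctrl, so the size of the fold is not read. Of all genes tested in cerebellum, 10.3% rose and 2.86% fell, 13.2% together. Slc17a6, Slc6a11, Slc6a5, Slc5a7, Slc18a3 and Slc18a2 rose. Slc17a7 and Slc32a1 did not pass, with log2 fold changes of -0.71 and -0.08. In frontal cortex, 3 of the 9 rose, namely Slc5a7, Slc18a3 and Slc17a8, against 9.16% of all genes tested that rose, 1.06% that fell and 10.2% together. With a minimum count of 50 in the low-count filter, Slc18a3 and Slc17a8 were not tested there and 1 gene, Slc5a7, rose. Without the fold limit, 6 transporter genes passed in frontal cortex and 7 in cerebellum, where 43.6% and 55.2% of all genes did. None of the 9 fell in frontal cortex, where Slc6a5 had too few counts for the test. Over all genes tested, the median log2 fold change was 0.0037 (frontal cortex) and 0.0077 (cerebellum).

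**Figure D2:**
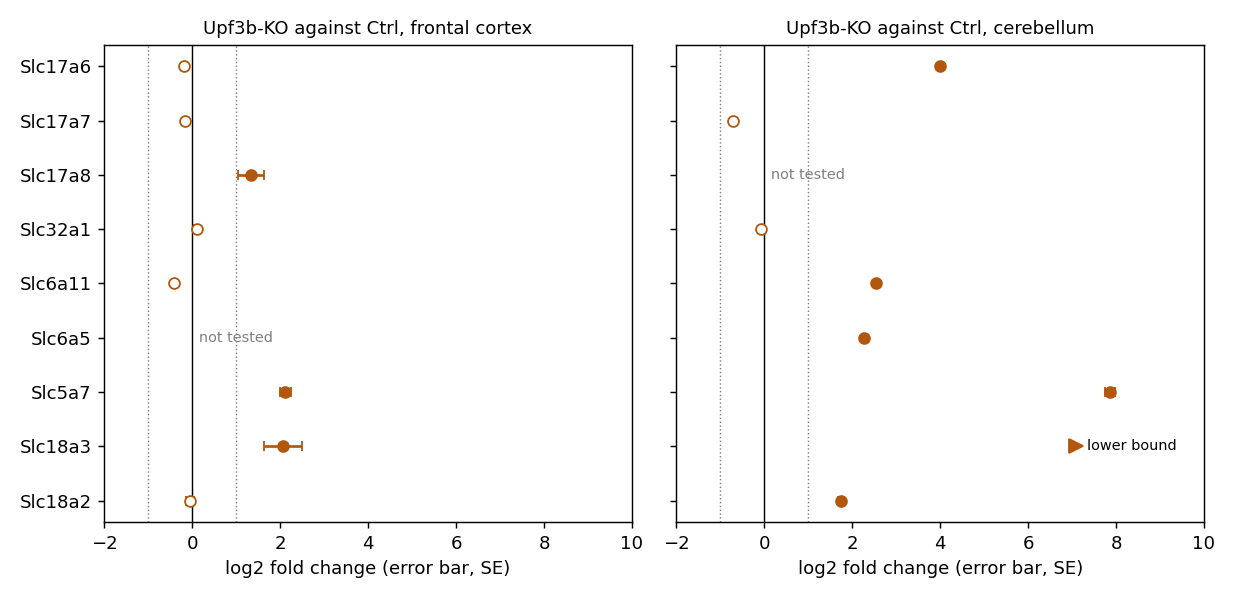
Log2 fold change of Upf3b-KO against Ctrl for each transporter gene, frontal cortex (left) and cerebellum (right), with its SE; filled points rose or fell by the rule of the text, and dotted lines mark a 2-fold change. In frontal cortex 3 genes and in cerebellum 6 are filled, and the triangle for Slc18a3 is a lower bound of 136-fold, since Ctrl had 0 counts.

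Slc17a7 (chromosome 7, 44813305 to 44825644, GRCm39) was the main vesicular glutamate transporter in all 4 groups. Its Ctrl frontal cortex libraries held 1244, 1302, 1256 and 1277 CPM and its Upf3b-KO libraries 1194, 1197, 1193 and 1184 CPM. All Upf3b-KO values were below all Ctrl values, but by little: the log2 fold change was -0.17 ± 0.012 (SE; edgeR quasi-likelihood test, adjusted p = 1.97e-10), far under a 2-fold change. In cerebellum the Ctrl libraries held 470, 449, 452 and 455 CPM and the Upf3b-KO libraries 291, 291 and 285 CPM. The groups did not overlap, and the log2 fold change was -0.71 ± 0.018 (adjusted p = 8.13e-17 by the same test), again under a 2-fold change.

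Slc17a6 (chromosome 7, 51271434 to 51320867) held 9.69, 9.76, 9.28 and 8.71 CPM in the Ctrl cerebellum libraries. In the Upf3b-KO libraries it held 157, 156 and 155 CPM. All Upf3b-KO libraries were therefore far above all Ctrl libraries, 16.7-fold by the group means, with a log2 fold change of 4.004 ± 0.038 (SE; edgeR quasi-likelihood test, adjusted p = 3.18e-23). In frontal cortex it held 27.0, 27.4, 28.2 and 26.6 CPM in Ctrl and 25.1, 28.5, 23.8 and 24.1 CPM in Upf3b-KO. The groups overlapped, and the log2 fold change of -0.18 ± 0.055 had an adjusted p of 0.00856 by the same test with a fold change under 2. From low to high, the groups stood as Ctrl cerebellum, Upf3b-KO frontal cortex, Ctrl frontal cortex and Upf3b-KO cerebellum, and the frontal cortex groups overlapped each other.

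Slc17a8 (chromosome 10, 89409882 to 89457326) was rare everywhere. In frontal cortex it held 0.600, 0.485, 0.290 and 0.838 CPM in Ctrl and 1.43, 1.47, 1.68 and 1.30 CPM in Upf3b-KO. The groups did not overlap, and the gene rose with a log2 fold change of 1.33 ± 0.30 (SE; edgeR quasi-likelihood test, adjusted p = 0.000646). These values stand for 10 to 27 counts per library in Ctrl and 42 to 51 in Upf3b-KO. In cerebellum there were 0, 1, 0 and 0 counts in the Ctrl libraries and 6, 19 and 16 in Upf3b-KO. The ratio of the summed counts per depth was 53.0, with an exact 95% counting interval of 8.99 to 2142.

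To compare genes with one another, counts were also divided by transcript length and rescaled (TPM). By TPM, Slc17a6 made up 1.44% ± 0.048 of the 3 vesicular glutamate transporters in Ctrl frontal cortex, 1.43% ± 0.11 in Upf3b-KO frontal cortex and 1.38% ± 0.071 in Ctrl cerebellum. In Upf3b-KO cerebellum the share was 27.0% ± 0.21. Slc17a7 made up 98.5%, 98.5%, 98.6% and 73.0% in the same order of groups. Slc17a8 stayed under 0.1% in each library. The shares of Slc17a6 and Slc17a7 thus overlapped between 3 of the groups and lay apart in Upf3b-KO cerebellum.

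**Figure D3:**
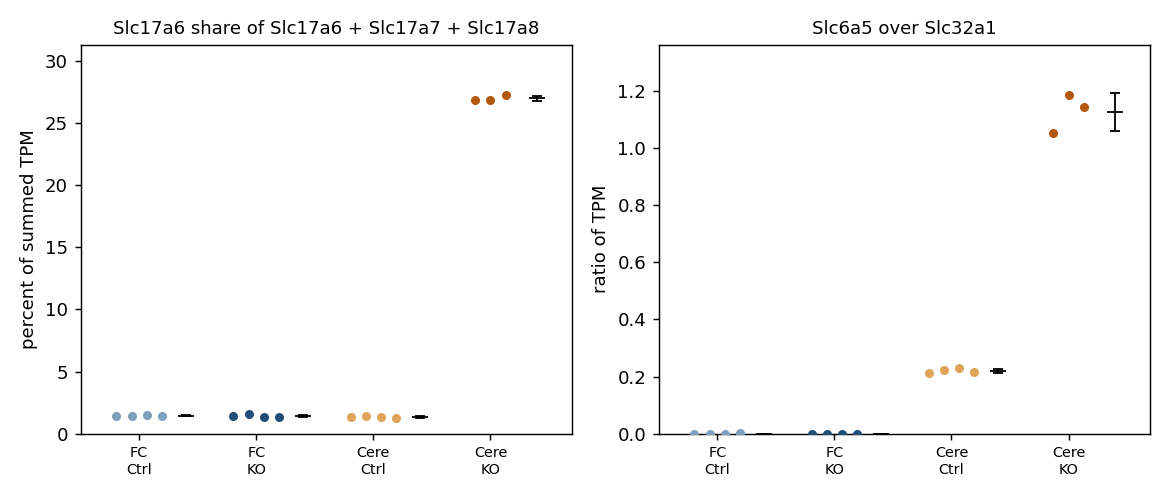
Left, percent of the summed TPM of Slc17a6, Slc17a7 and Slc17a8 that Slc17a6 contributed in each library; right, ratio of Slc6a5 to Slc32a1 by TPM (bars, mean with SD; linear axes from 0). The Slc17a6 share was 26.8% to 27.2% in the 3 Upf3b-KO cerebellum libraries and at most 1.60% in the other libraries.

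Slc32a1 (chromosome 2, 158452605 to 158464883), the vesicular transporter that all GABA and glycine neurons share, moved little. In cerebellum it held 66.1, 65.1, 64.8 and 64.8 CPM in Ctrl and 67.8, 60.8 and 63.9 CPM in Upf3b-KO. The groups overlapped, and the log2 fold change was -0.08 ± 0.036 (SE; edgeR quasi-likelihood test, adjusted p = 0.0747). In frontal cortex it held 23.0, 24.4, 25.6 and 24.5 CPM in Ctrl and 26.2, 26.4, 27.6 and 29.7 CPM in Upf3b-KO. The groups did not overlap in CPM, but the log2 fold change after scaling was 0.10 ± 0.052 (adjusted p = 0.124 by the same test). Of all genes tested, 48.4% did not overlap between the groups in frontal cortex and 63.4% in cerebellum. Of the 8 transporter genes tested in each tissue, the groups of 6 and 7 did not overlap. Gad1 and Gad2, which make GABA, had log2 fold changes of -0.64 ± 0.013 and -0.27 ± 0.019 in cerebellum and 0.00 ± 0.015 and 0.05 ± 0.020 in frontal cortex (SE), all under a 2-fold change.

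Slc6a5 (chromosome 7, 49559894 to 49613604), which takes up glycine at glycinergic terminals, held 34.3, 35.4, 36.4 and 34.0 CPM in Ctrl cerebellum. In Upf3b-KO cerebellum it held 174, 175 and 178 CPM. Every Upf3b-KO library lay above every Ctrl library, 5.02-fold by the group means, with a log2 fold change of 2.28 ± 0.030 (SE; edgeR quasi-likelihood test, adjusted p = 3.18e-21). In frontal cortex there were 1, 0, 0 and 2 counts in the Ctrl libraries and none in Upf3b-KO, so each library lay under the floor of 3 counts in both genotypes and no fold is given. The ratio of Slc6a5 to Slc32a1 by TPM was 0.220 ± 0.0081 in Ctrl and 1.13 ± 0.067 in Upf3b-KO cerebellum. Glra1, a subunit of the glycine receptor, rose in cerebellum from 0.684 ± 0.14 to 47.0 ± 1.8 CPM (log2 fold change 6.04 ± 0.094, SE; edgeR quasi-likelihood test, adjusted p = 4.47e-20).

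Slc6a11 (chromosome 6, 114108200 to 114226913), a GABA uptake transporter known mainly from astrocytes, was higher in Upf3b-KO in cerebellum and lower, by less than 2-fold, in frontal cortex. In cerebellum it held 69.0, 68.1, 68.4 and 71.8 CPM in Ctrl and 420, 414 and 412 CPM in Upf3b-KO. The Upf3b-KO libraries were all higher, 5.99-fold by the group means, with a log2 fold change of 2.53 ± 0.022 (SE; edgeR quasi-likelihood test, adjusted p = 6.86e-24). Frontal cortex libraries held 235, 248, 243 and 236 CPM in Ctrl and 183, 199, 184 and 190 CPM in Upf3b-KO. There the Upf3b-KO libraries were all lower, with a log2 fold change of -0.42 ± 0.025 (adjusted p = 4.47e-12 by the same test). None of the 6 astrocyte markers rose or fell in either tissue by the 2-fold rule. Their summed level was lower in all Upf3b-KO libraries, with 1603 to 1609 CPM in Ctrl and 1395 to 1424 CPM in Upf3b-KO frontal cortex, and 2077 to 2109 and 2008 to 2020 CPM in cerebellum. Without the fold limit, 4 of the 6 markers were lower and 1 higher in frontal cortex, and 5 lower and 1 higher in cerebellum. The part of astrocytes in the levels of Slc6a11 was not tested.

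Slc5a7 (chromosome 17, 54580020 to 54606076) brings choline into cholinergic terminals. It held 0.145, 0.323, 0.198 and 0.217 CPM in Ctrl cerebellum, or 5 to 11 counts per library, and 51.6, 54.7 and 56.4 CPM in Upf3b-KO cerebellum. No library of one group came near the other: the log2 fold change was 7.86 ± 0.11 (SE; edgeR quasi-likelihood test, adjusted p = 7.94e-21). Frontal cortex libraries held 1.35, 1.39, 1.39 and 1.21 CPM in Ctrl and 6.28, 6.76, 5.54 and 5.98 CPM in Upf3b-KO. The groups did not overlap there either, and the gene rose 4.59-fold by the group means (log2 fold change 2.12 ± 0.13, SE; adjusted p = 1.57e-11 by the same test).

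Slc18a3 (chromosome 14, 32184395 to 32186807), which loads acetylcholine into vesicles, lies within the annotated span of Chat, the gene of the enzyme that makes acetylcholine. It had 0 counts in all 4 Ctrl cerebellum libraries and 403, 508 and 541 counts, or 14.1, 14.4 and 15.9 CPM, in the Upf3b-KO libraries. Against the floor of 3 counts per library it was at least 136-fold higher in Upf3b-KO (edgeR quasi-likelihood test, adjusted p = 5.33e-15). With Cere_Upf3b-KO 1 included, it did not pass the low-count filter and was not tested in cerebellum. In frontal cortex it held 0.360, 0.303, 0.0580 and 0.155 CPM in Ctrl, which stand for 2 to 12 counts, and 1.28, 0.686, 1.29 and 0.648 CPM in Upf3b-KO. The groups did not overlap, and the log2 fold change was 2.06 ± 0.44 (SE; adjusted p = 0.000405 by the same test). Chat moved in the same direction: from 0.183 to 3.26 CPM in frontal cortex (log2 fold change 4.07 ± 0.35, adjusted p = 1.84e-09) and from 0 counts to 13.6 CPM in cerebellum, at least 126-fold. Reads of Slc18a3 and Chat can be shared in part, since the genes overlap on the same strand.

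Slc18a2 (chromosome 19, 59249238 to 59284695) loads dopamine, noradrenaline, serotonin and histamine into vesicles. In cerebellum it held 7.75, 7.94, 9.11 and 8.21 CPM in Ctrl and 27.0, 29.8 and 29.1 CPM in Upf3b-KO. All Upf3b-KO libraries were higher, 3.47-fold by the group means, with a log2 fold change of 1.75 ± 0.070 (SE; edgeR quasi-likelihood test, adjusted p = 5.58e-14). Frontal cortex libraries held 8.83, 10.1, 9.45 and 9.40 CPM in Ctrl and 9.56, 10.5, 10.6 and 8.05 CPM in Upf3b-KO. These overlapped, with a log2 fold change of -0.04 ± 0.091 (adjusted p = 0.725 by the same test).

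The partner genes of the same transmitters were counted as lists. Of the 6 cholinergic partners, 4 rose in each tissue and none fell. Their median log2 fold changes were 3.49 (frontal cortex) and 4.72 (cerebellum). Among them, Lhx8 and Isl1, which specify forebrain cholinergic neurons, had 5 and 21 counts in all in Ctrl frontal cortex and 177 and 267 in Upf3b-KO. In cerebellum Isl1 rose too, from 1 to 166 counts, whereas Lhx8 had 0 and 6 counts and was not tested. Ache, which breaks acetylcholine down, rose in cerebellum from 36.8 to 128 CPM (log2 fold change 1.74 ± 0.033, SE; edgeR quasi-likelihood test, adjusted p = 8.76e-19). In frontal cortex Ache (36.5 CPM in both genotypes) and Ngfr (1.05 and 1.30 CPM) did not pass. Of the 11 monoamine partners, 6 rose and none fell in cerebellum (median 2.01). The noradrenaline transporter Slc6a2 went from 7 to 1449 counts summed over the libraries, or 14.8 CPM in Upf3b-KO (adjusted p = 5.04e-16 by the same test). Tph2, which starts serotonin synthesis, rose from 0.686 to 8.79 CPM, and the serotonin transporter Slc6a4 went from 3 to 360 counts. Fev, from the same list, had 0.421 and 0.641 CPM and did not pass (log2 fold change 0.56 ± 0.39, SE). Th, which starts catecholamine synthesis, had 12.0 and 16.8 CPM with a log2 fold change of 0.44 ± 0.071 (SE), under a 2-fold change, and the dopamine transporter Slc6a3 had 5 and 23 counts and was not tested.

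In frontal cortex 1 of the 11 monoamine partners rose, Slc18a1, with 11 counts in Ctrl and 71 in Upf3b-KO. Tph2 and Th had log2 fold changes of -0.18 ± 0.20 and -0.63 ± 0.25 there (SE), neither past the threshold. Of the 9 glutamate partners none rose or fell in frontal cortex. In cerebellum 1 rose, the glutaminase Gls2 (14.8 to 34.8 CPM), and 1 fell, the glial glutamate transporter Slc1a3 (2755 to 1297 CPM, log2 fold change -1.14 ± 0.011, SE; edgeR quasi-likelihood test, adjusted p = 2.84e-23). Of the 9 GABA and glycine partners, Glra1 alone rose in cerebellum and none passed in frontal cortex. Without the fold limit, 3 of the 9 were higher and 6 lower in cerebellum (list median -0.40). Their summed level there was 3355 to 3408 CPM in Ctrl and 3018 to 3034 CPM in Upf3b-KO.

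Markers of other brain regions moved with these results. In cerebellum all 9 hindbrain Hox genes rose. Each had 0 to 10 counts in all in the Ctrl libraries, so no fold is given, and 189 to 2745 counts in Upf3b-KO. Their summed level went from 0.176 to 0.362 CPM in Ctrl libraries to 57.9 to 65.6 CPM in Upf3b-KO libraries. Hoxb5 went from 5 to 2745 counts, and Hoxd3 and Hoxd4 had 0 counts in Ctrl. All 5 Purkinje cell markers fell (Car8 from 3198 to 1115 CPM, list median -1.44), with summed levels from 10514 to 10655 CPM in Ctrl to 4176 to 4191 CPM in Upf3b-KO. Of the 6 granule cell markers 3 fell and none rose (Neurod1 from 556 to 255 CPM, list median -0.998), with summed levels of 4131 to 4162 and 2259 to 2265 CPM. Of the 8 thalamus and midbrain markers 4 rose and 1, Barhl2, fell (45.1 to 19.9 CPM). Their summed level was 70.3 to 73.7 CPM in Ctrl and 50.6 to 55.3 CPM in Upf3b-KO, and Barhl2 made up most of it in Ctrl. Besides Barhl2, only Tcf7l2 (19.4 and 14.5 CPM) and Lef1 (6.91 and 6.55 CPM) had lower means in Upf3b-KO. The means of the other markers of this list were higher. Shox2 had 0 counts in Ctrl and 714 in Upf3b-KO. Of the 8 striatal markers 2 rose in cerebellum, Drd2 (8 to 490 counts) among them, while their summed level was 415 to 425 CPM in Ctrl and 381 to 389 CPM in Upf3b-KO. Ppp1r1b alone had a lower mean in Upf3b-KO (243 and 127 CPM), and the means of the other 7 were higher. The part of such other cells in the rise of the 6 transporter genes was not tested.

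In frontal cortex all 8 striatal neuron markers rose, with a median log2 fold change of 2.02, and their summed level was 186 to 201 CPM in Ctrl and 918 to 931 CPM in Upf3b-KO. Penk, an opioid precursor of striatal neurons, went from 37.3 to 250 CPM. None of the 9 hindbrain Hox genes had enough counts to be tested there, and their summed level was at most 0.0606 CPM in Ctrl and 0.208 CPM in Upf3b-KO. Of the 7 cortical excitatory markers 1, Fezf2, fell, from 33.2 to 16.8 CPM, and none rose. Of the granule cell markers 1, Cbln1, fell there, from 8.49 to 4.01 CPM. All 6 choroid plexus markers rose in both tissues, led by Ttr (7.94 to 1848 CPM in frontal cortex and 2.05 to 1209 CPM in cerebellum). Their summed level went from 17.6 to 18.7 CPM in Ctrl to 2134 to 2188 CPM in Upf3b-KO in frontal cortex, and from 22.0 to 25.4 CPM to 1365 to 1387 CPM in cerebellum. The part of striatal and choroid plexus tissue in the rise of Slc5a7, Slc18a3 and Slc17a8 was not tested.

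**Figure D4:**
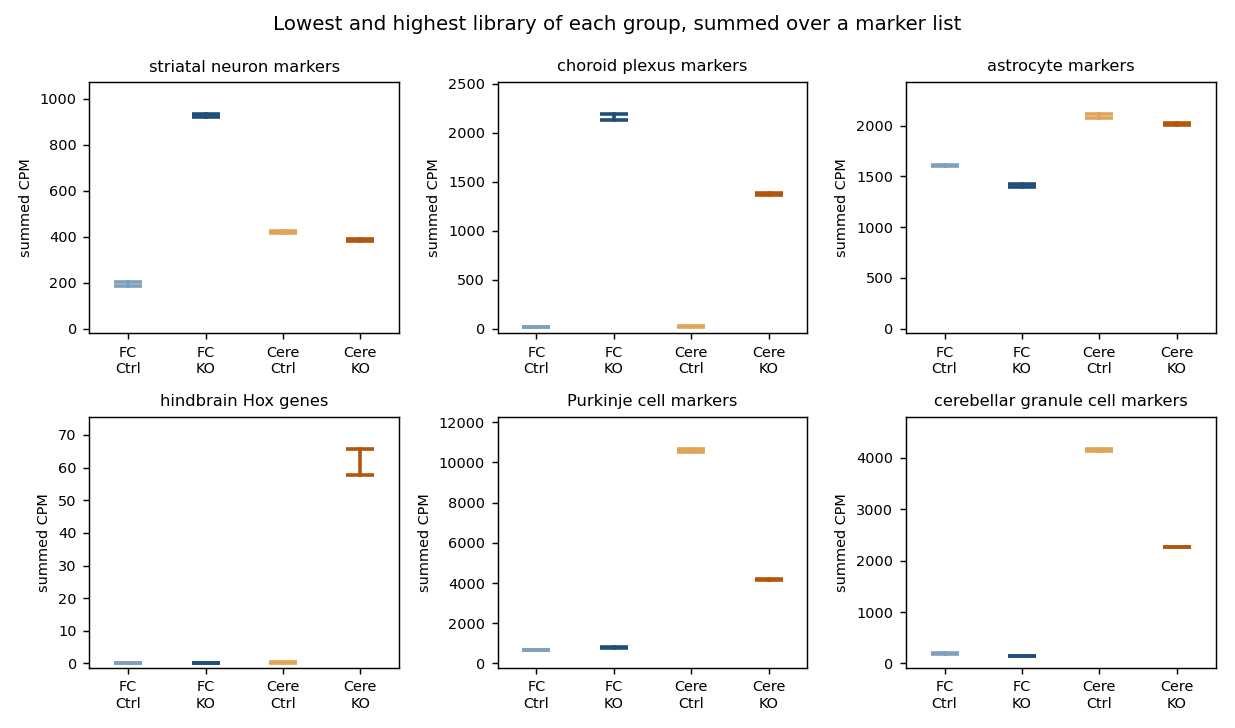
Lowest and highest library of each group in the summed CPM (linear axis) of 6 marker lists. Hindbrain Hox genes reached 57.9 to 65.6 CPM in Upf3b-KO cerebellum alone, striatal markers were at 918 to 931 CPM in Upf3b-KO frontal cortex, and choroid plexus markers were high in both Upf3b-KO groups.

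The fold change of Upf3b-KO against Ctrl differed between the tissues for most of the transporter genes. The tests between tissues treat the libraries as independent, since no source used here says which libraries came from 1 animal. In the interaction of tissue and genotype, fitted over the 15 libraries, 7 of the 9 genes had a higher fold change in cerebellum and none a lower one by the same thresholds, where 6.36% of all genes were higher, 3.04% lower and 9.40% either. The difference of the log2 fold changes was 4.17 ± 0.069 for Slc17a6, 2.95 ± 0.036 for Slc6a11, 5.73 ± 0.21 for Slc5a7 and 1.78 ± 0.12 for Slc18a2 (SE; edgeR quasi-likelihood test, largest adjusted p among these 1.95e-12). Slc18a3, Slc17a8 and Slc6a5 also passed, but each had a group with 0 to 3 counts in all, so the size of their difference is set by the fit and is not read here. The call of Slc6a5 ended with the replicate number as a block (adjusted p = 0.0199 by the same test) and without FC_Ctrl replicate 1 or 4 (adjusted p = 0.0161 and 0.0884), which leaves 6 genes. Slc17a7 and Slc32a1 differed by -0.55 ± 0.021 and -0.18 ± 0.062 (SE), under a 2-fold change.

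Between the tissues of Ctrl mice, 8 of the 9 genes differed, where 25.5% of all genes did (8.74% higher in cerebellum, 16.8% lower). In cerebellum 6 were lower than in frontal cortex (Slc17a6, Slc17a7, Slc17a8, Slc6a11, Slc5a7 and Slc18a3) and 2 were higher (Slc32a1 and Slc6a5). Slc18a2 overlapped between the tissues, with 8.83 to 10.1 CPM in frontal cortex and 7.75 to 9.11 CPM in cerebellum. In Upf3b-KO mice all 9 differed, against 21.8% of all genes (6.83% higher in cerebellum, 15.0% lower), but 7 were now higher in cerebellum and 2, Slc17a7 and Slc17a8, lower. Slc17a6 turned from a log2 difference of -1.57 ± 0.054 in Ctrl to 2.61 ± 0.043 in Upf3b-KO, cerebellum against frontal cortex, and Slc6a11 from -1.82 ± 0.026 to 1.12 ± 0.025 (SE). Slc5a7 turned likewise, from -2.60 ± 0.21 to 3.13 ± 0.077.

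Genes whose pattern over the 15 libraries was closest to a member were sought by the root mean square difference of centred log2(CPM + 0.5) over 16164 protein-coding genes. For Slc5a7 the closest were Slc10a4, Chat and Chodl (0.46, 0.57 and 0.62 log2 units), where Slc5a7 itself had an SD of 2.31. For Slc6a11 they were Resp18 (0.08), Smim17 (0.19) and Magel2 (0.22), and for Slc17a6 Gabrq (0.32), Dgkk (0.33) and Baiap3 (0.37). Resp18 held 62.4 CPM in Ctrl and 48.4 CPM in Upf3b-KO frontal cortex, and like Slc6a11 it was lowest in Ctrl and highest in Upf3b-KO cerebellum. The closest to Slc18a3 were Arhgap36, Sncg and Dbh (0.42, 0.42 and 0.49), to Slc18a2 Pgf, Ache and Rbms3 (0.12, 0.15 and 0.16), and to Slc17a8 Rnf32, Slco1c1 and Ccdc170 (0.18, 0.20 and 0.21). The closest to Slc6a5, which had an SD of 3.76, were Cnpy1, Mybpc3 and Crtam (1.03, 1.09 and 1.10), and none of them had a higher mean in Upf3b-KO than in Ctrl cerebellum.

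Transcripts were tested one by one because NMD acts on single isoforms. Of the 24 transcripts, 14 were tested in cerebellum, where 6 rose and 1 fell, against 3.45% and 1.31% of all transcripts. In frontal cortex 13 were tested, 1 rose, the coding transcript ENSMUST00000095712 of Slc5a7 (0.856 ± 0.36 to 5.57 ± 1.2 CPM), and none fell, against 2.76% and 0.461%. The share of this transcript in the gene's counts varied between frontal cortex libraries, from 29.9% to 89.4% in Ctrl and 70.2% to 99.5% in Upf3b-KO. DESeq2 called 3 transcripts in frontal cortex. The cerebellar rises were in the coding transcripts of Slc17a6, Slc6a11, Slc18a2, Slc18a3 and Slc5a7 and in a retained-intron transcript of Slc5a7 (12.9 ± 2.0 CPM in Upf3b-KO). The fall was in a retained-intron transcript of Slc17a7, from 4.88 ± 0.50 to 2.32 ± 0.36 CPM. For Slc6a5 the counts were split between ENSMUST00000056442 and ENSMUST00000207753, which differ at the first exon. The share of the first was 22.1% to 100% in Ctrl libraries and 41.1% to 62.3% in Upf3b-KO, so neither passed although their sum did.

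Slc6a5 and Slc17a6 each have 1 isoform annotated as an NMD substrate, the kind of transcript that the pathway degrades, and neither made up more than a trace of the gene's counts. The Slc6a5 isoform ENSMUST00000209172 had 0 counts in every library. It lacks an exon of the full-length isoform, and its reading frame ends at a stop codon in the following exon (chromosome 7, 49566998 to 49567000), 1535 nt before the last exon junction. The Slc17a6 isoform ENSMUST00000207945 lacks the exon of 51295935 to 51296022 and stops at 51298933 to 51298935, 477 nt before its last junction. It held 0.109 to 0.194 CPM in Upf3b-KO cerebellum and at most 0.132 CPM in Ctrl cerebellum, where the gene held 156 and 9.36 CPM. In frontal cortex it held at most 0.0526 CPM in Upf3b-KO and at most 0.144 CPM in Ctrl. To show where the 2 annotated substrates end early, the coding stretches up to these stop codons are given 5′ to 3′ on the plus strand of GRCm39, with the stop codon in capitals:
Slc6a5 NMD isoform: ataccggcgcgttcctcatcccttactTGA
Slc17a6 NMD isoform: atgctggagcagtcattgcaatgccctTAG
The Slc6a5 stretch joins chr7:49561986-49561991 to chr7:49566977-49567000. The Slc17a6 stretch is chr7:51298906-51298935, which the full-length isoform reads through in another frame.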

How the data were processed

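The authors aligned reads to GRCm39 with STAR 2.5.2b and deposited RSEM expected counts per Ensembl transcript, 1 table per tissue. The libraries were ribosomal RNA depleted and made with a SMART-Seq kit, and no source says if counting used strand, which makes overlapping genes uncertain. Of 142435 transcripts, 141102 matched GENCODE vM39 by identifier and were summed per gene. Expected counts were rounded and fitted with edgeR 4.0.16 (R 4.3.3): filterByExpr with minimum count 10 and minimum total 15, TMM scaling, quasi-likelihood F test with group as the only term, and Benjamini-Hochberg adjustment over all genes tested (18218 in frontal cortex, 17785 in cerebellum, 19831 over both). A call needed adjusted p below 0.01 with more than a 2-fold change. The SE is the log2 fold change divided by the square root of F. Fitted fold changes use the TMM scaling, so they differ slightly from ratios of mean CPM. TPM used annotated transcript lengths.

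The library with under 1000000 counts was left out. Depth gives floors (3 counts) of 0.0851 to 0.108 CPM, and floors and counting intervals cover counting error only. The fits were tested on simulated data. DESeq2 1.42.0, other scaling, filters and thresholds, the replicate block and leaving out each library were tried. The transporter genes and the lists were chosen with earlier results of these data known. Named are all 9 genes, their transmitter partners, the gene with the smallest adjusted p per list and direction, and the 3 closest genes per gene called. Other genes named from a list (Lhx8, Isl1, Ngfr, Fev, Ppp1r1b, Tcf7l2, Lef1, Hoxd3 and Hoxd4) were chosen after their values were seen.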

Additional observations from a re-analysis of the deposited data

Results flagged for a closer look

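The log2 fold change of Upf3b-KO against Ctrl differed between cerebellum and frontal cortex for 7 transporter genes by the interaction test. The differences were 4.17 for Slc17a6, 2.95 for Slc6a11, 5.73 for Slc5a7 and 1.78 for Slc18a2. For Slc18a3, Slc6a5 and Slc17a8 the fit gave 9.79, 5.07 and 3.76, but these rest on groups with 0 to 3 counts in all. The fit sets their size, so they are no measure of the difference. Slc6a5 no longer passed with the replicate block or without FC_Ctrl replicate 1 or 4, which leaves 6 genes.

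The library Cere_Upf3b-KO 1, left out for its 64981 counts, held 6 transporter genes above both its floor of 46.2 CPM and the highest Ctrl cerebellum library. These were Slc17a6 at 139 CPM (9 counts), Slc6a11 at 339 CPM (22 counts), Slc6a5 at 123 CPM (8 counts), Slc5a7 at 123 CPM (8 counts), Slc32a1 at 92.3 CPM (6 counts) and Slc18a2 at 61.6 CPM (4 counts). The exact 95% counting interval of Slc17a6 was 63.3 to 263 CPM and that of Slc32a1 33.9 to 201 CPM. The first lies above the Ctrl libraries and the second spans them. Slc18a3 and Slc17a8 had 0 counts there, under its floor of 3 counts.

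Slc17a8 in Ctrl cerebellum replicate 2 stood apart from the other 3 libraries at 0.0294 CPM, but this is 1 count against 0. It was the only one of 25 gene and group sets to pass Dixon's 95% limit, which chance passes in about 1 of 20.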

How the results depend on the processing

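Of 1043 alternative values of single genes, 1026 kept their direction and their side of the threshold, 13 newly passed, 3 no longer passed (all Slc6a5 in the interaction) and 1 reversed. In frontal cortex 6 genes passed with no fold limit at an adjusted p under 0.01 or 0.05 (Slc17a6, Slc17a7 and Slc6a11 were added, all lower in Upf3b-KO), and 1, Slc5a7, with a minimum count of 50, since Slc17a8 and Slc18a3 were then not tested. Slc17a8 was then not called in the interaction or between tissues either. Over all genes, the 1861 calls in frontal cortex and 2339 in cerebellum became 7950 and 9820 with no fold limit at 0.01, 9711 and 11453 at 0.05, and 1047 and 1500 with a minimum count of 50, and a fold change over 1.5 gave 4049 in cerebellum and 3336 against 1864 in the interaction. Without a fold limit at 0.01 and 0.05, there were 7709 and 9526 in the interaction, 12988 and 14488 against 5065 between tissues in Ctrl, and 11951 and 13489 against 4320 in Upf3b-KO. DESeq2 called 3 transcripts in frontal cortex where edgeR called 1. Slc18a2 in frontal cortex never passed, and its log2 fold change ranged from -0.089 to 0.036 when a library was left out, and reversed without FC_Upf3b-KO replicate 4. Leaving out each library in turn gave 3 to 3 genes in frontal cortex, 6 to 7 in cerebellum, 8 to 8 and 9 to 9 between tissues in Ctrl and Upf3b-KO and 6 to 7 in the interaction, and 1 to 1 and 6 to 7 transcripts. The interaction of Slc6a5 was lost without FC_Ctrl replicate 1 or 4 (adjusted p = 0.0161 and 0.0884, edgeR quasi-likelihood test) and with the replicate block (log2 difference 5.07, adjusted p = 0.0199). Deviations of same-numbered libraries correlated at -0.14 to 0.23 over 14 pairs, where 0.1 was the value set for pairing. The 3 pairs between genotypes in cerebellum stood at 0.055 to 0.23, so pairing by replicate number was not settled there. The replicate block gave 3, 6, 8, 9 and 6 genes in the 5 comparisons. With the shallow library included, Slc18a3 did not pass the low-count filter in cerebellum, so it was no longer called there and is not among the 3. Depth limits Slc17a8, Slc18a3 and Slc6a5, whose low groups are at or near 0 counts.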
